A study of Mus musculus with 2 samples.

Results

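B2m and Tfrc were measured in mouse kidney with 1 probe each, printed in 20 spots per array. The members were the spots whose target accession is NM_009735.3 (B2m) or a version of NM_011638 (Tfrc, carried as NM_011638.3), which gave 40 of the 61194 non-control spots on each array and 2 of the 112 genes that the array names through RefSeq accessions. B2m encodes beta-2-microglobulin and Tfrc encodes the transferrin receptor TfR1, also known as CD71. The study hybridised kidney RNA of male mice, left kidneys to 1 array and right kidneys to another. Each side was read as 1 pool of 3 kidneys, although the wording of the series can be read otherwise, and the strain, age and any treatment of the mice are not given in the sources used here. Neither kidney has a replicate array, so no test was possible and no p-value is given. The precision of each difference is limited by having 1 array per side.

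Beta-2-microglobulin is the small subunit that pairs with the heavy chains of class I histocompatibility molecules and is needed for their transport to the cell surface. It also pairs with the neonatal Fc receptor and with HFE, a class I-like protein. Free beta-2-microglobulin in blood is filtered in the glomerulus and taken back up by the proximal tubule. TfR1 binds iron-loaded transferrin and carries it into the cell, and HFE can bind TfR1, which links the products of these genes. The Tfrc mRNA is stabilised by iron regulatory proteins when a cell is short of iron, and TfR1 is abundant on red cell precursors and present in kidney tubules. In whole-kidney RNA, fewer cells of a type and less RNA per cell cannot be told apart.

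Both genes gave bright signal in both kidneys. With the 75th percentile scaling used here, B2m signal differed between the sides by less than the SD of its spot pairs, and Tfrc signal was 1.09-fold higher on the right array. All 20 spots of each gene were well above background on both arrays, and none was saturated. Differences are left minus right in log2 signal, after each array was scaled to its own 75th percentile of signal, over pairs of spots at the same position in which the software had marked neither as an outlier. This difference was 0.01 ± 0.04 (SD of 17 spot pairs) for B2m and -0.12 ± 0.08 (SD of 19 spot pairs) for Tfrc. The B2m difference exceeded its SD of 0.04 under median scaling (0.06) and cyclic loess (-0.06), in opposite directions. The Tfrc difference was larger than the SD of its spot pairs, but not under median scaling, where both were 0.08 in size. It kept its sign under each of 12 other ways of processing, between -0.19 (cyclic loess) and -0.08 (median scaling), but several of these overlap and are not separate checks. Neither gene differed 2-fold, a size reached by 1.08 percent of the 35367 probes well above background on both arrays. Of the same probes, 47.5 percent were lower on the left, as Tfrc was, and 52.5 percent were higher. Among the 447 probes within 0.25 log2 units of Tfrc in brightness, 31.3 percent were lower on the left. Such shares depend on the scaling. Spots of 1 array share the pool, its labelling and its hybridisation, so the SDs of spot pairs hold spot noise and no variation between mice. They describe the spread of single pairs, not the precision of a mean over pairs.

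The B2m spots, in units of processed intensity (fluorescence after subtraction of background and detrending within the array), covered similar ranges on both sides. On the left array the 17 unmarked spots ran from 129374 through a median of 137680.4 to 144231. On the right array the 19 unmarked spots ran from 131444 through a median of 136778 to 143480.1. The ranges overlapped, with 2 left spots above every right spot and 2 below every right spot. The spots varied by a coefficient of variation of 3.11 percent on the left and 2.06 percent on the right.

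Paired by position, the B2m split between the sides depended on the scaling. With the 75th percentile scaling, of its 17 unmarked pairs, 9 were higher on the left and 8 on the right, with single pairs between -0.05 and 0.07 in scaled log2 signal. The software had marked 3 left spots and 1 right spot as population outliers, with 1 position marked on both arrays. That position held the lowest right spot, at 124847, against 133898 on the left. With all 20 pairs kept, 10 were higher on each side and the mean stayed at 0.01 ± 0.04. Under median scaling the mean was 0.06, and 15 of the 17 pairs were higher on the left. Under quantile normalization it was -0.03, with 13 pairs higher on the right, and under cyclic loess -0.06, with 16 higher on the right.

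The Tfrc spots were lower on the left array, with partly overlapping ranges. The 19 unmarked left spots ran from 21729.7 through a median of 23806 to 25059 in processed intensity. The 20 right spots ran from 23668 through a median of 25995 to 27551. Of these right spots, 14 lay above every left spot, between 25173 and 27551, and 6 lay within the left range, between 23668 and 24360.0. The coefficient of variation between spots was 3.77 percent on the left and 5.22 percent on the right, wider than for B2m on each array.

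**Figure D1:**
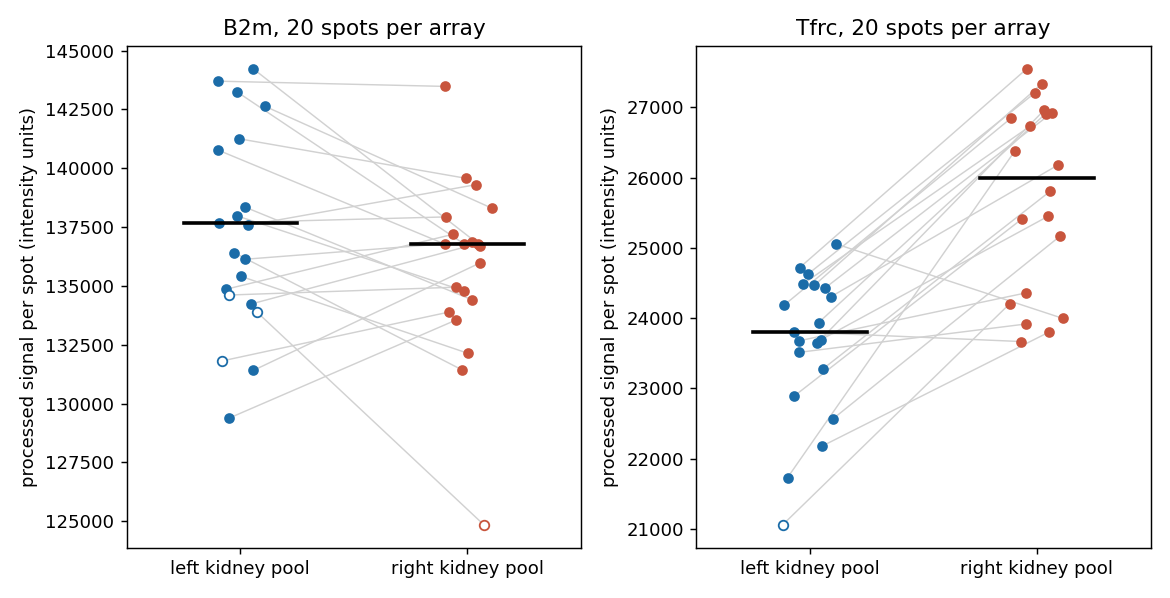
Processed signal of each spot of B2m (left panel) and Tfrc (right panel) on the array of the left and of the right kidney pool, in intensity units on axes that do not start at 0. Grey lines join the spots at the same position, open circles are spots marked as outliers by the software, and bars are medians of the unmarked spots. The B2m ranges overlap, while 14 of the 20 right Tfrc spots lie above every left one.

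Position by position, 17 of the 19 unmarked Tfrc pairs were higher on the right. Single pairs ran from -0.28 to 0.06 in scaled log2 signal, and the median pair stood at -0.15. The 1 marked left spot, at 21058, was the lowest of the gene, and with it 18 of 20 pairs were higher on the right at -0.13 ± 0.08. The 2 exceptions were a pair near the upper edge of the array (row 10, column 147), at 0.06, and an inner pair (row 337, column 100), whose left and right signals of 23806 and 23668 were nearly equal. The error that the software gave per spot was a median of 10 percent of the signal over the 20 Tfrc spots of each array. It was the same 10 percent for the brighter B2m spots on both arrays. A value that constant is no measure of the spread of these spots, and it refers to single spots, not to a mean over 19 pairs. The coefficient of variation between Tfrc spots was 3.77 percent on the left and 5.22 percent on the right.

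The mean Tfrc difference had the same sign in the upper and lower and in the left-hand and right-hand parts of the array. Among positions with lower row numbers the mean was -0.11 ± 0.07 (SD of 9 pairs), and among those with higher row numbers -0.14 ± 0.08 (SD of 10 pairs). Among lower column numbers all 8 pairs were higher on the right, and among higher column numbers 9 of 11 were. B2m stood at 0.03 ± 0.03 (SD of 9 pairs) in lower rows and at -0.01 ± 0.04 (SD of 8 pairs) in higher rows, both within their spread.

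Tfrc spots close to the border had lower median signal than inner ones. On the right array, the 7 Tfrc spots within 10 rows or columns of an edge had a median of 24206 and the 13 inner spots a median of 26852. On the left array, 6 unmarked edge spots had a median of 23087 and 13 inner spots a median of 24187. B2m showed no such order, with a median of 140779.5 over 3 edge spots against 136994 over 14 inner spots on the left, and 137935 over 3 against 136353 over 16 on the right. Of the 6 right spots that fell within the left range, 4 were such edge spots, against 3 of the other 14. Without edge spots the Tfrc difference was -0.14 ± 0.07 (SD of 13 pairs), with 12 of the 13 higher on the right.

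The probes printed around each spot also differed between the arrays. The median difference of the 18 nearest probes ranged from -0.14 to 0.19 over the 19 Tfrc positions, with a mean of 0.04. Across these positions the Tfrc difference rose with that of its surroundings (Pearson's r of 0.66 over 19 spot pairs that share both arrays, given as a description). For B2m the same r was 0.48 over 17 spot pairs. After the surroundings were subtracted, Tfrc stood at -0.16 ± 0.08, and 19 of 19 pairs were higher on the right. The Tfrc SD hardly changed, from 0.077 before the subtraction to 0.076 after it. B2m stood at 0.003 ± 0.085 after the same correction, with a wider spread than before it and 9 pairs higher on the left against 8.

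**Figure D2:**
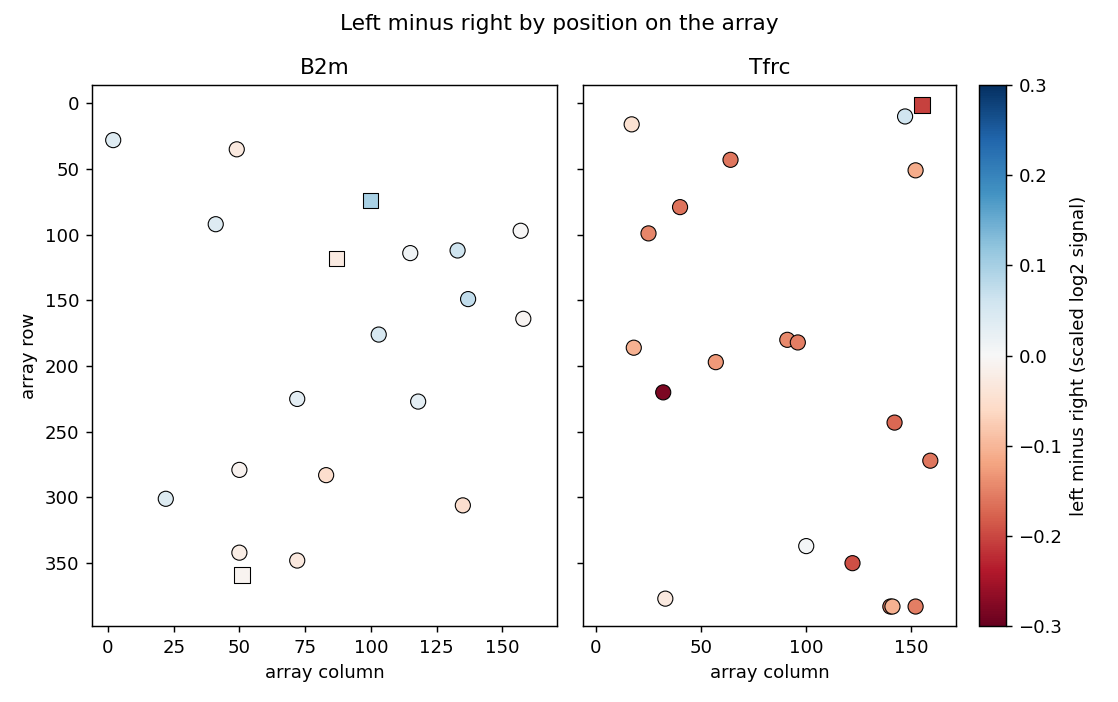
Position of the B2m and Tfrc spots on the array, by row and column, coloured by left minus right in scaled log2 signal (red, higher on the right; blue, higher on the left). Circles are unmarked pairs and squares are pairs with a spot marked as an outlier. Tfrc is higher on the right at all but 2 of its positions, and B2m is mixed with this scaling.

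Ranked by signal, B2m was among the brightest probes on both arrays. It was at percentile 99.8 of all non-control probes on each array, with 131 of 59724 probes brighter on the left and 116 of 59725 on the right. Its mean signal was 316 times the 75th percentile of the left array and 313 times that of the right. The highest B2m spot, before background subtraction, reached 18.3 percent of the scanner's saturation value on the left and 17.99 percent on the right. Probes differ in affinity, so a rank of signal is not a rank of transcript number.

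Tfrc ranked in the upper part of the signal range on both arrays. It was at percentile 96.5 on the left array, with 2060 probes brighter, and at 96.8 on the right, with 1898 brighter. Counted against probes well above background alone, it was at percentile 94.3 on the left and 95.1 on the right. Its mean signal was 54.4 times the 75th percentile of the left array and 59.0 times that of the right.

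Among the 15 genes printed in 20 spots, the brightness order of these members was the same on both arrays, B2m in place 3 and Tfrc in place 8. On the log2 scale, the mean processed signal of B2m was 17.07 (SD 0.05, 17 spots) on the left and 17.06 (SD 0.03, 19 spots) on the right, and that of Tfrc 14.53 (SD 0.06, 19 spots) and 14.65 (SD 0.08, 20 spots).

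By difference between the sides, B2m stood in the middle of all probes and Tfrc in the lower part. Over the 35367 probes well above background on both arrays, ranked by left minus right, the B2m probe was the median probe, with 17683 probes below it and 17683 above it. This place is unaffected by any scaling that shifts a whole array. Of the same probes, 27.2 percent were lower than Tfrc, and 57.6 percent had a larger difference in either direction. Against probes of like brightness, within 0.25 log2 units, Tfrc lay further out. The median of 447 such probes was 0.06, their range from the 5th to the 95th percentile was -0.20 to 0.34, and 8.72 percent of them lay below Tfrc. For B2m the median of 240 such probes was 0.04, and 34.6 percent lay below it. Most probes had a single spot (59729 probes in 61194 non-control spots), while each member was a mean over 17 to 20 spots per array. The spread of the other probes therefore holds more spot noise than the member values do, and these shares do not compare like with like.

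**Figure D3:**
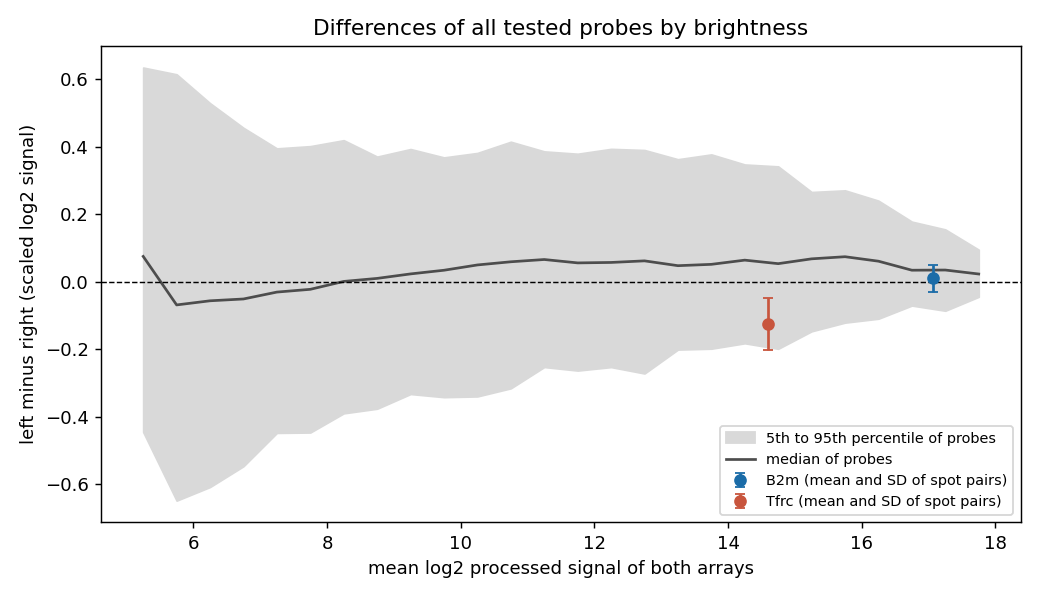
Left minus right in scaled log2 signal against the mean log2 processed signal of both arrays, for all 35367 probes well above background on both. The line is the median and the band the 5th to 95th percentile of probes in steps of brightness, and the points are B2m and Tfrc with the SD of their spot pairs. B2m (0.01) sits near the median of bright probes, and Tfrc (-0.12) sits below the median and inside the band. Most probes behind the band have a single spot, while the points are means over many spots.

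Of the 14 genes with replicate spots and signal above background, Tfrc had the lowest left minus right difference. Ldhal6b, also printed in replicate spots, was left out of the 14. It was above background in 0 percent of its spots on the left and 10 percent on the right. Its mean was lower than that of Tfrc, at -0.18 ± 0.88 (SD of 19 spot pairs). Among the 14, Tfrc held the lowest place under each of the 6 other scalings and background methods run. Median scaling and no scaling shift a whole array, so they could not change this order. Normexp and the median spot signal gave close values, with Hprt at -0.047 under both, so they are hardly separate checks. With the percentile scaling, another 2 of the 14 genes had a negative mean. Hprt, an enzyme of purine salvage, stood at -0.03 ± 0.06 (SD of 18 spot pairs). Nono, a nuclear RNA-binding protein gene, stood at -0.03 ± 0.11 (SD of 19 spot pairs). With this scaling both lay within their own spread, and both were at 0.02 under median scaling. Under quantile normalization they stood at -0.092 and -0.088 and under cyclic loess at -0.099 and -0.090, with 5 and 6 of the 14 genes negative. By size, Tfrc was in place 3, after Hsp90ab1 and the beta-actin gene Actb, and in place 11 under median scaling and place 1 under quantile normalization. B2m had the smallest difference of the 14, but it was in place 3 from the smallest under median scaling, 6 under quantile normalization and 9 under cyclic loess. The genes nearest to B2m in difference were Gapdh, a glycolytic enzyme, at 0.03 ± 0.06 (SD of 17 spot pairs), then Nono and Hprt. Those nearest to Tfrc were Hprt, Nono and B2m, at distances of 0.092, 0.097 and 0.134, each wider than the SD of the Tfrc pairs. This likeness rests on 2 arrays.

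**Figure D4:**
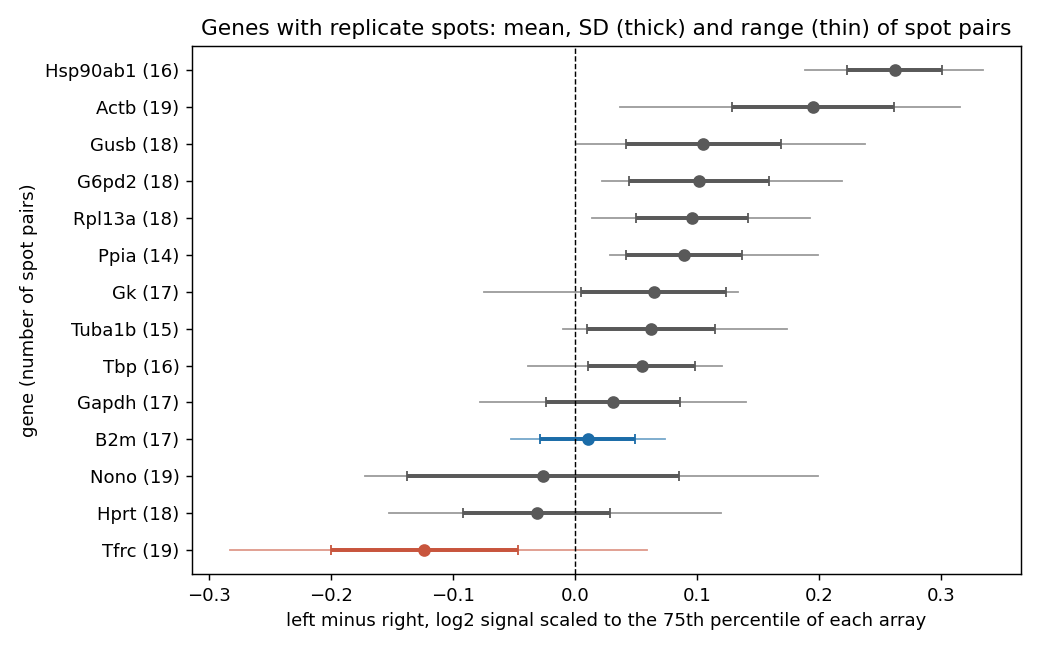
Left minus right in scaled log2 signal for the 14 genes with replicate spots and signal above background. Points are means over spot pairs, thick bars their SD and thin lines the range of pairs, with the number of pairs beside each name. Tfrc (-0.12) is the lowest mean and B2m (0.01) is the closest to 0.

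Set against each other, the members differed in their side difference by -0.13, Tfrc minus B2m, which no scaling constant of an array can change. The spot spreads of both genes together, as the root of the summed squared SDs, came to 0.09. The value lay between -0.17 and -0.13 under the 10 alternatives tried. Of the other genes of these pathways, none could be read by name. Of 28 genes fixed for class I molecules and their partners, among them heavy chains, the peptide transporter and the Fc receptor, 0 had a named probe, and of 28 genes for iron uptake and its regulation 0 had one. Markers of kidney, red cell precursors, white cells and endothelium, 29 genes, were likewise unnamed, so neither the tissue label nor the share of blood cells in the 2 pools could be checked. The part of such cells in the Tfrc difference was not tested.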

How the data were processed

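Per the labels' protocols, random priming along whole transcripts made labelled cRNA from kidney RNA freed of ribosomal RNA. The deposited intensities come from Agilent Feature Extraction 11.0.1.1, per the submitters' processing notes; per the file headers they use 1 colour, and the authors' series table equals the processed signal in 62513 of 62513 rows (relative tolerance 1e-05). Here each processed signal was divided by its array's 75th percentile, taken to log2 and paired by row and column. Pairs with an outlier mark on either array were left out, as were controls and, outside the ranks, probes named as negatives. Ranks used probe means over unmarked spots. Array-wide counts used probes well above background on both arrays. The replicate-gene rule named, for each member, the 3 genes of nearest difference. Accessions were named through RefSeq (GRCm38.p6, 116 of 123 matched). Members, lists and alternatives were chosen with earlier results of these data known. Probe and protein sequences and positions were not used here. Calculations were tested on simulated data. R 4.3.3 with limma 3.58.1 gave the normalizations, and Python 3.11.15 the rest (scipy 1.17.1, numpy 2.4.6, matplotlib 3.10.9, pandas 2.3.3).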

Additional observations from a re-analysis of the deposited data

How the results depend on the processing

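The Tfrc difference stayed negative under all 12 alternatives, between -0.19 (cyclic loess) and -0.08 (median scaling), and moved by less than its spot SD in each. The Tfrc minus B2m value did so under all 10 of its alternatives. The B2m difference had no stable sign: it was positive in 7 of 12 and negative in 5, and moved by more than its spot SD to 0.059 with median scaling, -0.034 with quantile normalization and -0.060 with cyclic loess. Median scaling shifts the differences of all genes by the same constant. The cause of the moves under quantile normalization and cyclic loess was not tested. Among probes well above background, which are fewer by construction, the percentiles were 99.6 (left) and 99.7 (right) for B2m and 94.3 and 95.1 for Tfrc. Among all non-control probes, with marked outlier spots kept, they were 99.77 and 99.79 for B2m and 96.53 and 96.82 for Tfrc. Without background subtraction they were 99.77 and 99.81 for B2m and 96.52 and 96.82 for Tfrc. These lay inside the exact 95 percent intervals of the main values. Those intervals rest on the count of brighter probes as if probes were independent draws. They hold no variation between spots, arrays or mice. Normexp used the median spot signal with an offset of 50. Chosen after seeing the data were 2 combinations, marked outlier spots kept without edge spots and marked outlier spots kept after subtraction of the 18 nearest probes. Spots were paired by position, but left and right kidneys could not be paired by mouse because each side has 1 array.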

Other observations

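How alike spots at the same position were between the arrays varied with the gene, the signal used and the spots kept. Across the 17 unmarked B2m positions, Pearson's r between left and right was 0.52 for the processed signal and -0.26 for the median spot signal before background subtraction and detrending. With all 20 positions kept the same values were 0.52 and 0.41. For Tfrc they were 0.33 and 0.69 over 19 positions, and 0.42 and 0.74 over 20. Side-by-side Tfrc spots in row 383, columns 140 and 141, read 23279 and 22178 on the left and 25806 and 23802 on the right.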
